A study of Mus musculus with 4 samples.

Results

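The genes described here are 10 members and relatives of the TNF receptor system in tumor-infiltrating CD8+ T cells: the receptors *Tnfrsf4* (OX40), *Tnfrsf8* (CD30), *Tnfrsf9* (4-1BB), *Tnfrsf18* (GITR), *Tnfrsf1b* (TNFR2), *Cd27* and *Fas*, the ligands *Cd40lg* (CD40 ligand) and *Tnfsf11* (RANK ligand), and the receptor-like gene *Igflr1*. They were taken by symbol, and all 10 were found among the 15981 genes listed in any library. *Igflr1* was picked for its higher level in Tc9 cells in these libraries, so its values are a description and no test of it is given.

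Both groups were Pmel-1 CD8+ T cells marked by Thy1.1+, of the C57BL/6 strain, whose transgenic T cell receptor recognizes the melanoma antigen gp100. The cells were cultured for 5 days, first under conditions that polarize them either into Tc1 cells (IFN-γ–producing, with IL-2) or into Tc9 cells (IL-9–producing, with IL-4, TGF-β and anti–IFN-γ antibody), and then in medium with IL-2. The methods describe activation with antibodies to CD3 and CD28 and, for some experiments, with gp100 peptide, and do not say which served here. Cells of either kind were injected into Thy1.2+ B6 mice with subcutaneous B16 melanomas of 10 days and sorted from the tumors 14 days later. In this tumor model the study also gave the hosts cyclophosphamide, peptide-pulsed dendritic cells and IL-2. Each group had 2 libraries, each from RNA pooled over mice, and the methods do not state how many mice went into each pool, so p-values measure only the spread between these pools.

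Depth was alike, from 30822953 to 31927162 counts per library, but the tables list genes in the order of their identifiers and stop at different points. Tc1 replicate 1 reaches 1 of the 10 genes (*Igflr1*), Tc9 replicate 1 reaches 2 (*Igflr1* and *Fas*), and the replicate 2 libraries reach all 10. The other 8 genes therefore rest on 1 library per group and have no replicate check. All 8 T cell markers were present, with *Cd8a* between 19330 and 21622 counts in the 4 libraries. Of the CD3 chains, *Cd3e* (3046 and 2758 counts in Tc1 cells against 3827 and 5743 in Tc9 cells; log2 fold change 0.73, SE 0.17, adjusted p = 0.0108) and *Cd3g* (7015 and 7588 against 10944 and 9467; 0.49, SE 0.11, adjusted p = 0.00995) rose in Tc9 cells in the 4-library edgeR test, and their part in the values below was not tested. *Ifng* was at 15303 counts in Tc1 replicate 2 against 5097 and 4700 in Tc9 cells, and *Il9* was at 3 counts against 2601 and 2667. The Tc1 marker *Gzmb* was at 215770 against 108448 and 92856 counts, and the Tc9 marker *Irf4* at 18150 against 44730 and 42747. *Spi1*, also listed as a Tc9 marker, was close to absent, at 2 counts in Tc1 replicate 2 and 1 in Tc9 replicate 2. *Tbx21*, listed for Tc1, is reached by Tc9 replicate 2 alone (4319 counts).

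TNF receptors are surface proteins that are clustered by trimeric ligands of the TNF family. Most of those on T cells recruit TRAF adaptors and feed the NF-κB pathway, which supports survival and division after antigen contact, whereas *Fas* carries a death domain that leads to caspase activation. OX40, 4-1BB, GITR, CD30 and TNFR2 appear or rise on T cells after activation, CD27 is already present on naive T cells, and CD40 ligand and RANK ligand are made by activated T cells themselves. IGFLR1 resembles TNF receptors in its extracellular part and binds proteins of the IGF-like (IGFL) family.

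Of the 10 genes, 5 lie on chromosome 4 (RefSeq, GRCm38.p6, the mm10 build). *Tnfrsf4* (chr4:156013595-156016613) and *Tnfrsf18* (chr4:156026322-156028894) are direct neighbors separated by 9708 bases, and *Tnfrsf1b* (chr4:145212368-145246870) and *Tnfrsf8* (chr4:145267132-145315164) are direct neighbors separated by 20261 bases. *Tnfrsf9* (chr4:150920155-150946104) lies between these pairs. Stretches before a transcript start of 3 of these genes are shown, for the receptor with the largest replicate 2 ratio (*Tnfrsf4*) and for the promoters in which κB matches were found (*Tnfrsf8* and the downstream start of *Tnfrsf9*). Each reads 5′ to 3′ on the strand of the gene, ends at the base before the transcript start and leaves out bases within exons annotated by GENCODE M21. The *Tnfrsf4* transcript used starts at base 156013695, inside the RefSeq span of the gene given above, so its stretch lies within that span. Capitals mark matches to the κB motif, to the STAT motif TTCNNNGAA and to the AP-1 motif TGANTCA, searched on both strands.
Tnfrsf4, plus strand, chr4:156013611-156013694: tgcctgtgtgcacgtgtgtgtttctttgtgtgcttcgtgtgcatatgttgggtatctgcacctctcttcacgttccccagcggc
Tnfrsf8, minus strand, chr4:145315165-145315414: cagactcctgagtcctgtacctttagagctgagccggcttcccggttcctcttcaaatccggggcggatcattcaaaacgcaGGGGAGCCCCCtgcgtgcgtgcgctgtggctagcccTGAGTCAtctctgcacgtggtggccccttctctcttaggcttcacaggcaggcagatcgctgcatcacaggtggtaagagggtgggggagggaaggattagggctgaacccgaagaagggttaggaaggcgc
Tnfrsf9 downstream start, plus strand, chr4:150927749-150927998: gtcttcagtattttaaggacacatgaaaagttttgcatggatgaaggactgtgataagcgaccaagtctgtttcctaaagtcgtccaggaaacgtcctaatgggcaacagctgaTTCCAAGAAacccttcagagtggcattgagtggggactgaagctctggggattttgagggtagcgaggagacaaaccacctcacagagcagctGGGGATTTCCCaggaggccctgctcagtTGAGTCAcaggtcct
The *Tnfrsf4* stretch holds none of these letters, the *Tnfrsf8* promoter holds overlapping κB matches and an AP-1 match, and the *Tnfrsf9* stretch holds a match to each motif. The search itself covered all 250 bases before the start, exons included, for the genes and for all promoters alike. For it, 9 of the 10 genes had a RefSeq window, in 10 windows because *Tnfrsf9* has a second start, and that of *Igflr1* consists of annotated exon bases. κB matches were found in 2 of these genes, STAT matches in 4 (*Fas*, *Tnfrsf1b*, *Tnfrsf9* and, outside its longest exon-free stretch, *Tnfrsf18*) and AP-1 matches in 3 (*Fas*, *Tnfrsf8* and *Tnfrsf9*). Of 32851 promoter windows of the same length, 7.25% held a κB match, 7.02% a STAT match and 6.75% an AP-1 match. A match says only that the letters are there.

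*Igflr1* was nearly absent from Tc1 cells and present in Tc9 cells. The rounded counts were 6 and 3 in Tc1 replicates 1 and 2, against 76 and 236 in the Tc9 replicates. In FPKM, fragments scaled by gene length and library size, these were 0.18, 0.10, 2.32 and 7.28. Both Tc9 libraries lay above both Tc1 libraries, and the Tc1 values were at or close to 3 counts, the level below which a gene cannot be told from absent at this depth. As CPM, counts scaled by library size, the level was 0.143 ± 0.067 in Tc1 cells and 4.97 ± 3.61 in Tc9 cells (SD, n = 2 libraries each), a ratio of 34.8 between the summed counts of 9 and 312 after scaling. The 95% counting interval of that ratio ran from 18.1 to 66.6 and does not include the spread between libraries. On the log2 scale the ratio of the means was 5.12, and it was 4.08 without Tc9 replicate 2 and 5.72 without Tc9 replicate 1. Over all 1284 genes tested in the 4 libraries, 17.4% were called higher in Tc9 and 16.7% lower at an adjusted p under 0.05 (edgeR's quasi-likelihood test).

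The Tc9 libraries differed from each other in *Igflr1* by 3.11-fold. Of 2587 other genes measured in both, 12 differed by as much, and of the 358 with a mean count within 2-fold of its own, 0 did. In Tc9 replicate 2, *Igflr1* stood at percentile 56.0 of the FPKM values in its table and in Tc9 replicate 1 at 39.9, against 19.9 and 18.4 in Tc1 replicates 1 and 2. Percentiles are within each table, and the tables hold different genes.

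*Igflr1* lies at chr7:30565427-30567962 on the plus strand, in a stretch where annotated genes are close together. *U2af1l4*, which encodes a relative of a small splicing factor subunit, ends 62 bases before it. The span of *Kmt2b*, a histone methyltransferase gene, lies 892 bases beyond the end of *Igflr1*. GENCODE M21 also lists a read-through gene, *Gm49396* (chr7:30563344-30567960), that spans *U2af1l4* and *Igflr1*, and annotated exons cover all 250 bases before the *Igflr1* start, so no promoter sequence is shown for it. *U2af1l4* was at 994 counts in Tc1 replicate 2 and 1005 in Tc9 replicate 2 (28.12 and 28.26 FPKM), a log2 ratio of 0.02 with a counting interval from -0.11 to 0.14. The counts of that neighbor could not be told apart in the libraries in which *Igflr1* was at 3 and 236. Whether read-through transcripts add to the *Igflr1* counts was not tested. The deposited counts of *Igflr1* were fractional (6.02, 3.49, 75.72 and 236.08), as such estimates are where a read matches more than 1 place, and its level is uncertain to that extent. Among the 10 genes, 4 had fractional counts (also *Tnfrsf4*, *Tnfrsf8* and *Cd27*).

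The genes whose pattern over the 4 libraries was most like that of *Igflr1* were *Ace*, *Akr1c18*, *C3*, *Acvrl1* and *Sncb*. Likeness was the root mean square difference of log2 CPM after centring each gene on its own mean, and the median over the 1283 genes compared was 2.31. *Ace*, encoding angiotensin-converting enzyme, was closest at 0.482, with 0 counts in both Tc1 libraries and 36 and 49 in Tc9. *Akr1c18*, a steroid-reducing enzyme gene, went from 4 and 2 counts to 155 and 162 (0.626), and *C3*, the central complement component, from 86 and 73 to 1011 and 1159 (0.627). *Acvrl1*, a type I receptor of the TGF-β family, was at 31 and 28 against 365 and 439 counts (0.636), and *Sncb*, encoding β-synuclein, at 6 and 5 against 65 and 93 (0.663). In all 5 the Tc9 libraries lay closer to each other than they did in *Igflr1*.

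**Figure D1:**
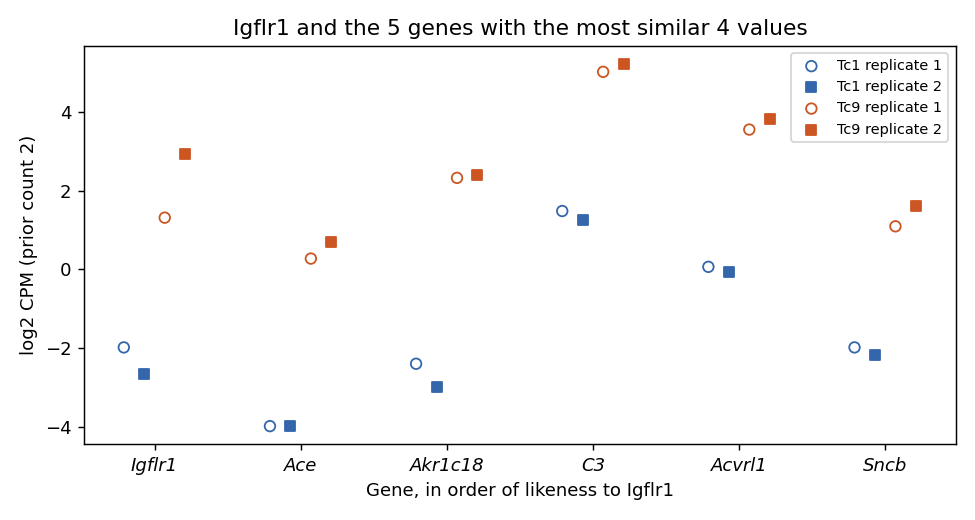
Log2 CPM (prior count 2) of *Igflr1* and of the 5 genes most like it, in order of likeness, with 1 point for each of the 4 libraries. Each gene is lower in both Tc1 libraries than in both Tc9 libraries, the pattern they were chosen for, and *Igflr1* has the widest gap between the Tc9 libraries.

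Among the costimulatory receptors, *Tnfrsf4* differed most between the replicate 2 libraries. It was at 1798 counts (55.79 FPKM) in Tc1 replicate 2 and 8019 counts (256.17 FPKM) in Tc9 replicate 2, a ratio of 4.46 and a log2 ratio of 2.16 (95% counting interval 2.08 to 2.23). Of 6226 genes compared in these libraries, 11.0% were over 2-fold higher in Tc9 and 4.95% over 2-fold lower. As a yardstick for libraries of one group, 95% of genes differed by less than 1.64-fold between the Tc9 libraries, and 26.4% of the genes compared here lay past that. *Tnfrsf4* was past both measures.

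*Tnfrsf18*, the direct neighbor of *Tnfrsf4*, differed less. It was at 5530 counts (196.71 FPKM) in Tc1 replicate 2 and 8185 counts (299.85 FPKM) in Tc9 replicate 2, a log2 ratio of 0.57 (0.52 to 0.62). *Tnfrsf8*, encoding CD30, was at 7131 and 10355 counts (52.05 and 79.77 FPKM), a log2 ratio of 0.54 (0.50 to 0.58). *Tnfrsf9*, encoding 4-1BB, had the highest FPKM of the 10 genes in both libraries, at 481.96 and 597.83 (29624 and 35512 counts), a log2 ratio of 0.26 (0.24 to 0.28). The counting intervals of all 3 exclude 0, but each ratio lay within the 1.64-fold yardstick of the Tc9 libraries. Between the Tc1 libraries, 95% of genes differed by less than 1.45-fold (0.535 on the log2 scale). *Tnfrsf18* lay past that narrower limit and *Tnfrsf8*, at 0.539, stood at it, while *Tnfrsf9* lay within it.

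*Tnfrsf1b*, encoding the second TNF receptor, was at 5495 and 5688 counts (35.98 and 38.66 FPKM), a log2 ratio of 0.05 (-0.003 to 0.10). *Cd27*, the receptor for CD70, was at 1445 and 1514 counts (32.24 and 34.64 FPKM), a log2 ratio of 0.07 (-0.04 to 0.17). Neither could be told apart from equal levels by counting error alone.

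*Fas*, the death receptor, is reached by 3 libraries. It was at 379 counts (9.40 FPKM) in Tc1 replicate 2, against 328 (8.25 FPKM) in Tc9 replicate 1 and 281 (7.46 FPKM) in Tc9 replicate 2. Both Tc9 libraries lay below the single Tc1 library, with a log2 fold change of -0.31 (SE 0.23) and an adjusted p of 0.412 in edgeR's quasi-likelihood test over 2622 genes. In that test 7.51% of genes were called higher in Tc9 and 3.2% lower. Its spread comes from the Tc9 libraries alone, and the single Tc1 library was assumed to vary like them.

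The ligands *Tnfsf11* and *Cd40lg* were both lower in Tc9 replicate 2. *Tnfsf11*, whose product RANK ligand drives osteoclast formation and lymph node development, was at 1198 counts (17.85 FPKM) in Tc1 replicate 2 and 664 counts (10.24 FPKM) in Tc9 replicate 2, a ratio of 0.555 and a log2 ratio of -0.85 (-0.99 to -0.71), past the replicate yardstick but not past 2-fold. *Cd40lg*, the helper signal for B cells and dendritic cells, was close to absent in both, at 11 and 2 counts (0.31 and 0.06 FPKM). Its ratio of 0.182 has a counting interval from 0.045 to 0.732.

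**Figure D2:**
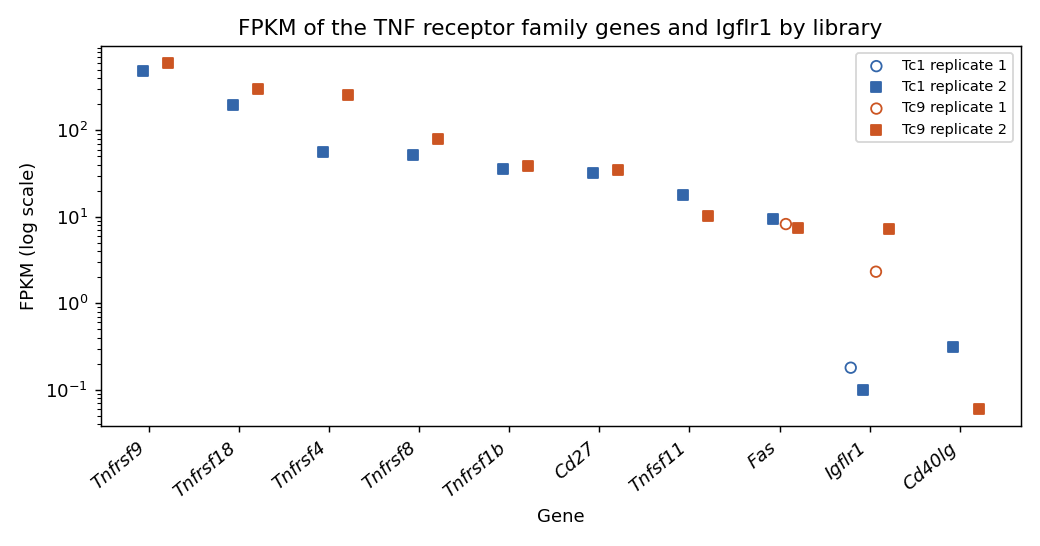
FPKM (log axis) of the 10 genes in each library whose table reaches the gene, 1 point per library. *Igflr1* has 4 points and *Fas* 3, the other genes have 1 per group, and *Tnfrsf9* is highest in both replicate 2 libraries.

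Leaving out *Igflr1*, 6 of the 9 genes were higher and 3 lower in Tc9 replicate 2, beside 3264 higher and 2962 lower of all 6226 genes compared. Past 2-fold there was 1 in each direction (*Tnfrsf4* higher, *Cd40lg* lower), beside 11.0% and 4.95% of all genes. Past the Tc9 yardstick 1 was higher and 2 were lower, and 6 lay within it, where 26.4% of all genes lay past it. The median log2 ratio was 0.07, beside 0.03 over all genes compared.

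**Figure D3:**
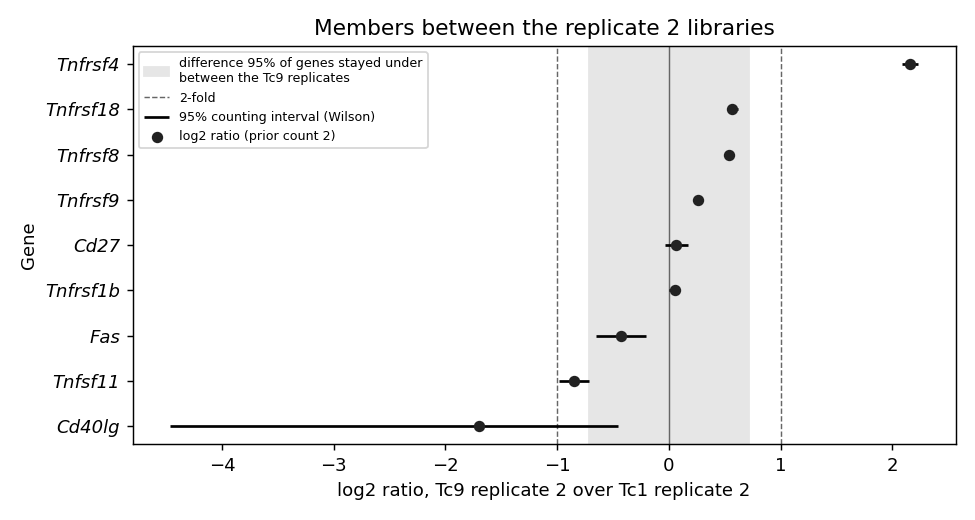
Log2 ratio of Tc9 replicate 2 to Tc1 replicate 2 for the 9 genes other than *Igflr1*, with 95% counting intervals as bars. The shaded band is the spread that held 95% of genes when the Tc9 libraries were set against each other (0.71 on the log2 scale), the dashed lines mark 2-fold, and the points of *Tnfrsf4*, *Tnfsf11* and *Cd40lg* lie outside the band, with the interval of *Tnfsf11* ending at its edge and that of *Cd40lg* reaching into it.

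By FPKM, the order in Tc1 replicate 2 ran from *Tnfrsf9* through *Tnfrsf18*, *Tnfrsf4*, *Tnfrsf8*, *Tnfrsf1b*, *Cd27*, *Tnfsf11*, *Fas* and *Cd40lg* to *Igflr1*. Neighbors from *Tnfrsf4* to *Cd27* differed by less than the replicate yardstick. In Tc9 replicate 2, *Tnfrsf4* stood within that yardstick of *Tnfrsf18* and above *Tnfrsf8* by 1.68 on the log2 scale, where in Tc1 replicate 2 it stood 0.10 above it. *Igflr1*, last in Tc1 replicate 2, was within the yardstick of *Fas* and above *Cd40lg* in Tc9 replicate 2. In Tc9 replicate 1, which reaches *Igflr1* and *Fas*, *Igflr1* was well below *Fas* (2.32 and 8.25 FPKM). The yardstick was taken from the same gene in different libraries, so between genes it is only a rough scale. Summed over the 10 genes, FPKM was 882.39 in Tc1 replicate 2 and 1331.96 in Tc9 replicate 2, with *Tnfrsf9* making up 54.6% and 44.9% of it.

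Other cell types express some of these receptors, and several markers moved with the groups. *Foxp3*, the regulatory T cell factor, was at 35 counts in Tc1 replicate 2 and 1592 in Tc9 replicate 2, while *Cd4* was at 50, 45, 56 and 58 counts in Tc1 replicates 1 and 2 and Tc9 replicates 1 and 2, and *Ikzf2* at 475 and 240 in the replicate 2 libraries. The summed level of these 3 genes was 17.7 CPM in Tc1 replicate 2 and 60.2 in Tc9 replicate 2. Of the 8 listed myeloid markers, 6 were at 3 counts or fewer in both replicate 2 libraries, with *Lyz2* at 0, and their summed level was 7.58 CPM in Tc1 replicate 2 and 11.8 and 14.3 in the Tc9 libraries, mostly *Cd68* (226 and 221 counts in Tc1 against 358 and 439), while *Itgam* went the other way (12 against 9 and 2). *Cd79b*, a B cell receptor component, was at 155 counts in Tc1 replicate 2 against 380 and 473, *Klrb1c*, an NK cell gene, at 8 against 1 and 0, and the dendritic cell genes *Xcr1* at 15 and 33 in the replicate 2 libraries and *Flt3* at 6 against 0 and 3. The melanoma gene *Pmel* was at 70 counts in Tc1 replicate 2 against 117 in Tc9 replicate 2, *Tyr* was at 6 against 13, and the other 4 melanoma markers are not listed in any library. *Tnfrsf4* and *Tnfrsf18* are also known for high expression in regulatory T cells, and the part of these markers in the values of the receptors was not tested. In bulk samples, fewer cells of a type and less RNA per cell cannot be told apart.

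The rest of the pathway was read from lists of other receptors, ligands, adaptors and kinases, NF-κB genes, and death and survival genes. Of 86 genes, 83 are listed in at least 1 library and 53 could be compared between the replicate 2 libraries, of which 3 were over 2-fold higher and 4 over 2-fold lower in Tc9, beside 11.0% and 4.95% of all genes. Their median log2 ratio was -0.07, beside 0.03 over all genes.

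Of 21 other receptors, 20 are listed and 6 could be compared, and none of these passed 2-fold in either direction (median 0.22). *Tnfrsf14*, encoding HVEM, was at 678 and 1187 counts, a log2 ratio of 0.81, and *Tnfrsf10b*, the TRAIL receptor, at 643 and 985, a log2 ratio of 0.61. *Cd40*, whose product binds CD40 ligand, was at 9 and 10 counts. Another 9 are listed in Tc9 replicate 2 alone because the other tables stop before them, among them *Tnfrsf13b* (1127 counts), *Relt* (1156) and *Tnfrsf22* (784).

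The ligands had the widest range of ratios of the lists. Of 10 compared, 2 were over 2-fold higher and 3 over 2-fold lower in Tc9 replicate 2, beside 11.0% and 4.95% of all genes. Their median log2 ratio was -0.42. The ends of the range, *Cd70* and *Tnfsf13b*, had low counts (22 and 13) in Tc1 replicate 2. *Tnfsf13b*, encoding the B cell survival factor BAFF, went from 13 to 98 counts (2.74, interval 2.09 to 3.74), and *Tnfsf10*, encoding TRAIL, from 1306 to 3515 (1.43, 1.34 to 1.52). Lower were *Lta*, encoding lymphotoxin-α (-1.02, and -0.97 when scaled by depth alone, which is under 2-fold), *Tnfsf9*, the ligand of 4-1BB (42 and 17 counts, -1.21), and *Cd70*, the ligand of CD27 (22 and 2 counts, a ratio of 0.091 with an interval from 0.024 to 0.349). The ligand of OX40, *Tnfsf4*, was at 182 and 205 counts, and *Tnf* at 1459 and 1114. *Igfl3*, a mouse IGFL gene, is not listed in any library.

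*Lta* was reached by 3 libraries, at 23851 counts in Tc1 cells against 10439 and 11760 in Tc9 cells, and both Tc9 libraries lay below the Tc1 library. Its log2 fold change was -1.10 (SE 0.20, adjusted p = 0.0231, edgeR), and the call was lost when genes of low count were kept in (adjusted p = 0.209) and with limma on log2(FPKM + 1) (adjusted p = 0.188). *Fasl*, the ligand of FAS, was at 785 counts against 478 and 417, a log2 fold change of -0.81 (SE 0.21) that did not pass (adjusted p = 0.0685, edgeR). *Ltb*, the partner of lymphotoxin-α in the membrane-bound heterotrimer, was at 1826 against 1520 and 1893 counts, a log2 fold change of -0.10 (SE 0.24).

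**Figure D4:**
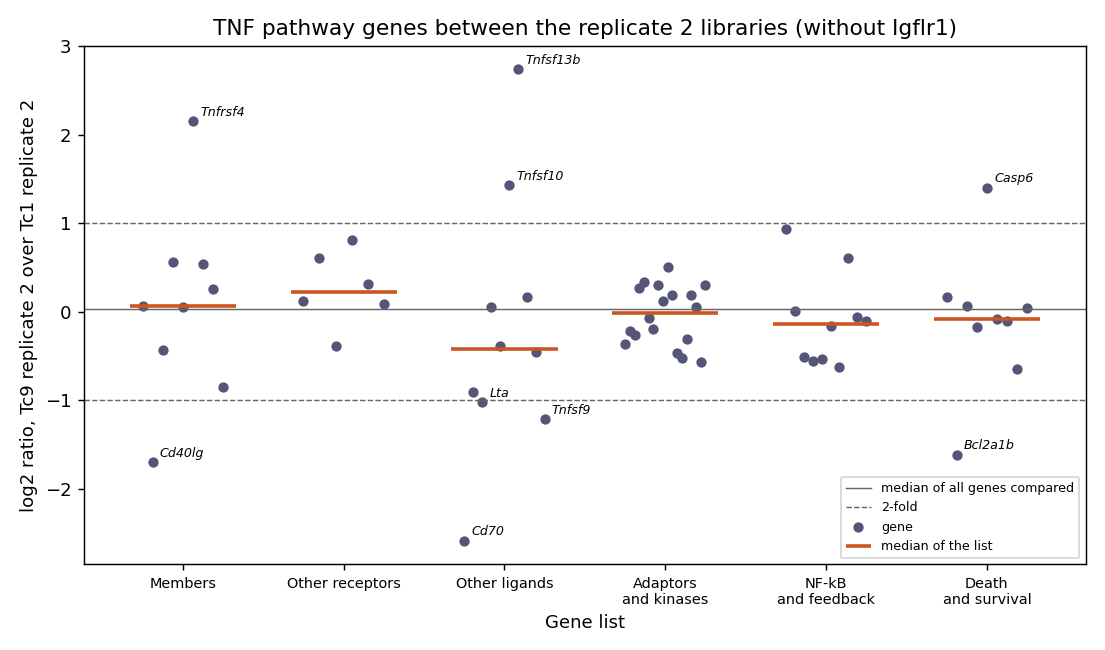
Log2 ratio of Tc9 replicate 2 to Tc1 replicate 2 for the genes of each list that could be compared, 1 point per gene, with bars at the list medians, dashed lines at 2-fold and a solid line at the median of all genes. Beyond the lines lie *Tnfrsf4* and *Cd40lg* of the 9 genes described first, 5 other ligands and 2 death and survival genes.

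In the intracellular part of the pathway, none of 18 adaptors and kinases and none of 10 NF-κB genes compared between the replicate 2 libraries passed 2-fold, with median log2 ratios of -0.01 and -0.13. Of the TRAF adaptors, *Traf1* (4123 and 2882 counts, -0.52) and *Traf5* (707 and 477, -0.56) had the lowest ratios and *Traf6* (5609 and 6902, 0.30) the highest. Of the NF-κB subunits, *Rela* was at 3774 and 5753 counts (0.61), *Rel* at 2180 and 1420 (-0.62) and *Nfkb1* at 27376 and 27565 (0.01). The inhibitor *Nfkbia*, itself a target of the pathway, was at 1863 and 1272 counts (-0.55), and *Tnfaip3*, encoding the feedback inhibitor A20, at 1015 and 947 (-0.10).

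All 4 libraries reach 12 of these 86 genes with enough counts for the test. Of them, 1 rose in Tc9 cells, 1 fell and 10 did not pass, at the threshold that 17.4% of all genes passed upward and 16.7% downward. *Casp6*, an effector caspase gene, was at 357 and 377 counts in Tc1 cells against 1049 and 999 in Tc9 cells, a log2 fold change of 1.48 (SE 0.12, adjusted p = 2.0e-05, edgeR). *Bcl2a1b*, a survival gene of the BCL2 family and a known NF-κB target, was at 975 and 1074 against 499 and 350 counts, a log2 fold change of -1.27 (SE 0.17, adjusted p = 0.000428, edgeR). *Bcl2a1b* has near-identical copies and fractional counts, so its level is uncertain.

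The 10 that did not pass include the receptor-proximal ubiquitin ligases *Birc2* (log2 fold change -0.19) and *Birc3* (-0.10), the initiator caspase gene *Casp8* (0.06), its substrate *Bid* (-0.10), and the survival genes *Bcl2* (0.23), *Bcl2l1* (0.01) and *Xiap* (0.08). *Bcl3*, an atypical NF-κB regulator, was at 447 and 426 counts in Tc1 cells against 461 and 818 in Tc9 cells. Only Tc9 replicate 2 lay clearly above the rest, and the log2 fold change of 0.55 (SE 0.23) had an adjusted p of 0.0835 (edgeR). Without Tc9 replicate 1, the log2 fold changes were -0.36 (*Birc2*), -0.19 (*Birc3*), 0.22 (*Sharpin*) and 0.91 (*Bcl3*). Without Tc9 replicate 2, they were 0.34 (*Bcl2*), 0.17 (*Casp8*) and 0.08 (*Bcl3*). Each of these fits keeps 1 Tc9 library and takes its spread from the Tc1 libraries, so no call is read from it.

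**Figure D5:**
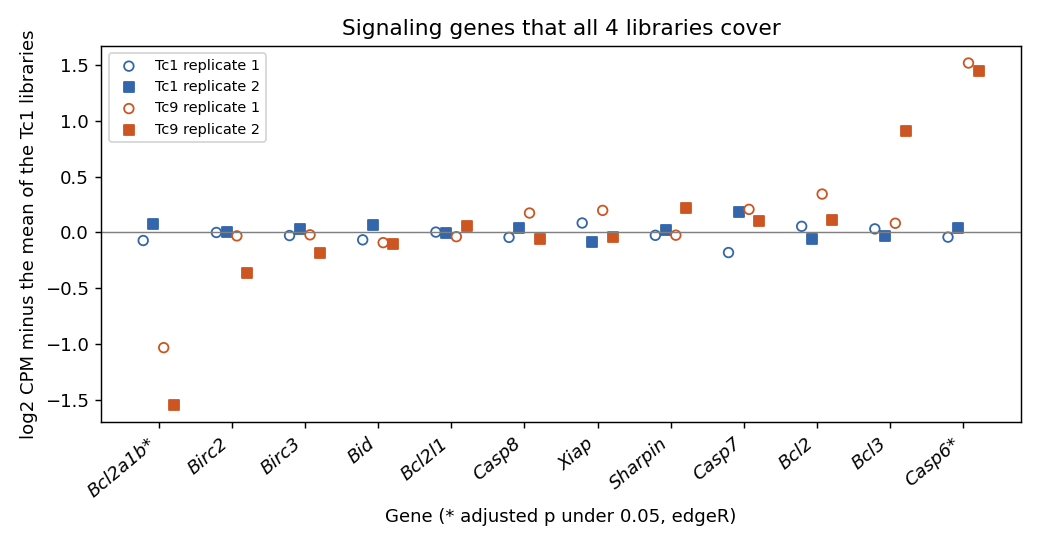
Log2 CPM minus the mean of the Tc1 libraries for the 12 pathway genes tested over all 4 libraries, 1 point per library, with an asterisk at genes past an adjusted p of 0.05 (edgeR). *Casp6* is higher in both Tc9 libraries, *Bcl2a1b* is lower in both, and the other 10 did not pass the test.

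In the test on Tc1 replicate 2 and both Tc9 libraries, which reaches 20 of the 86 genes, 1 was called higher (*Casp6*) and 2 lower (*Bcl2a1b* and *Lta*), beside 7.51% and 3.2% of all genes in that test. This test shares its libraries with the one above and is not separate evidence. The kinase genes *Ikbkb* (2397 against 2956 and 3029 counts), *Chuk* (2464 against 2505 and 2050) and *Ikbkg* (1164 against 1198 and 1108) did not pass, nor did *Fadd*, the adaptor of FAS (445 against 447 and 536), or *Cflar*, the inhibitor of caspase-8 activation (2570 against 2293 and 1638).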

How the data were processed

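RNA from tumor-infiltrating Tc1 and Tc9 cells was sequenced in 2 libraries per group. The values deposited per library are an expected count for every gene listed, not normalized, and an FPKM scaled by the authors by gene length and library depth. The build is mm10 in the submitters' processing notes, and the aligner and counting program are not given in the sources used here. The 4 tables list no gene at 0 and stop at different identifiers, so genes missing inside a table's reach were set to 0, and 1 incomplete last row was dropped. The depth of the complete table (Tc9 replicate 2) is its sum, and that of the others was this sum scaled by the median ratio of count to FPKM over genes of equal length, since a table that stops early does not sum to its depth. The floor below which a gene was not told from absent was set at 3 counts, or 0.0952 to 0.0956 CPM. Intervals are 95% Wilson intervals and, like this floor, cover counting error only.

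Counts were rounded, scaled by the TMM factors of the genes that all tables reach (0.990, 0.983, 1.01 and 1.02), and tested two-sided in edgeR 4.0.16 (R 4.3.3) by quasi-likelihood (filterByExpr, minimum count 10, Benjamini-Hochberg over all genes tested). The first test used all 4 libraries and the second Tc1 replicate 2 with both Tc9 libraries. The replicate 2 libraries were compared by log2 ratios (prior count 2, at least 10 counts in 1 library) without a test. The fits were tested on simulated data. Alternatives were DESeq2 1.42.0, limma 3.58.1 on log2 FPKM, other scalings, filters, thresholds and prior counts, a replicate block and leaving out each library, and the ratio of each Tc9 library alone for *Igflr1* was added after seeing the data. Replicates differed beyond sampling noise, with a chi-square per gene of 4.53 in Tc1 and 42.1 in Tc9.

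The members and lists were chosen with earlier results of these data known. Named genes are the 10 members, list genes past the threshold in a test or past 2-fold in the replicate 2 libraries, the 5 genes most like *Igflr1* and its chromosomal neighbors. Other list genes were named for their roles after their values were seen. The result of 1 list gene is not reported here, and the counts over lists leave it out. Promoter sequences are from RefSeq (GRCm38.p6).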

Additional observations from a re-analysis of the deposited data

How the results depend on the processing

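Over all 4 libraries, 224 genes were higher and 214 lower in Tc9. Without the filter on low counts these were 130 and 110, with limma on log2(FPKM + 1) 126 and 99, and with limma on log2(FPKM + 0.1) 115 and 77. Leaving out 1 library gave 72 to 405 higher and 39 to 405 lower (72 and 39 without Tc1 replicate 1, 82 and 54 without Tc1 replicate 2, 405 and 405 without Tc9 replicate 1, 343 and 350 without Tc9 replicate 2), the group left with 1 library being assumed to vary like the other. *Casp6* and *Bcl2a1b* kept direction and call under all 12 alternatives run for each. Same-numbered libraries did not deviate together (correlation -0.06), so the numbers were not taken as pairs. With the replicate block, 231 were higher and 213 lower, 406 of the calls were shared with the fit without the block, and *Bcl3* passed (log2 fold change 0.50, adjusted p = 0.0095, edgeR).

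With Tc1 replicate 2 and both Tc9 libraries, 197 genes were higher and 84 lower. TMM factors of that range gave 328 and 211, with *Fasl* then past the threshold (adjusted p = 0.0045), and an adjusted p under 0.1 gave 144 lower. Without the filter, edgeR called 0 and 0 (370 and 228 at an unadjusted p under 0.05), and limma on log2(FPKM + 1) called 0 and 0 (399 and 307), while DESeq2 called 232 and 105. Leaving out a Tc9 library there leaves no residual degrees of freedom.

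Of the 9 genes without *Igflr1*, those lower past the limit numbered 1, and 0 on log2(FPKM + 1), 2 past 1.5-fold and 2 past the replicate spread. Of the other listed genes, 3 higher became 7 past 1.5-fold and 5 past the spread, and 4 lower became 1 on log2(FPKM + 1) and 7 past 1.5-fold, and 3 when scaled by depth alone, where *Lta* fell short (-0.97). *Lta* was also short of 2-fold on log2(FPKM + 1) and log2(FPKM + 0.1), at -0.995 and -0.997. Over all genes, 682 higher became 271, 1309 and 1061 and 308 lower became 108, 796 and 583 on log2(FPKM + 1), past 1.5-fold and past the spread. The log2 ratio of *Igflr1* ranged from 4.08 to 5.72. For the count changes the cause was not tested. Values at low counts moved most, *Cd40lg* being at -2.20 with a prior count of 0.5 and -0.31 on log2(FPKM + 1).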
